A study of Mus musculus with 27 samples.

Results

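Loss of Brn3a was read from 4 of the 27 libraries of the series, all made from bead-captured cells of the mouse retina at postnatal day 3 (P3). Brn3a, the product of the Pou4f1 gene, is a POU-domain transcription factor found in retinal ganglion cells (RGCs), which carry the output of the retina through the optic nerve. Mice of the C57Bl/6 strain carried an alkaline phosphatase (AP) allele at the Brn3a locus, so that cells with an active locus display AP. The second allele was wild type in the heterozygous group (Brn3a AP/WT, called HET, 2 libraries) and null in the knockout group (Brn3a AP/KO, called KO, 2 libraries). Both groups therefore carry 1 AP allele, and HET cells keep 1 intact copy of the gene. Members were chosen by title, and estimated counts of transcripts were summed per gene. Dissociated retinal cells were captured on magnetic beads with an antibody against AP, and 1 library of the unbound cells (supernatant, SN) was made for each genotype. The labels do not say what activates the AP allele, whether animals were pooled, or whether a group's libraries were made from different mice. A p-value here therefore reflects library-to-library spread, which may be technical in part. The same design at the Brn3b (Pou4f2) locus, with 2 HET and 2 KO libraries at P3, served for comparison.

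The 4 libraries held 33297459 to 36498514 estimated counts, and replicate libraries correlated at 0.975 in HET and 0.966 in KO (log2 CPM, 16673 genes). CPM is a gene's counts scaled to its library's size and composition. In KO replicate 2 the title and source name give Brn3a, while the genotype entry gives Brn3b AP/KO. It held 10.9 CPM of Pou4f1 and 266 CPM of Pou4f2, against 62.6 and 89.1 CPM of Pou4f1 and 21.3 and 18.8 CPM of Pou4f2 in the Brn3b KO libraries at P3. The Y-linked genes Ddx3y and Eif2s3y had 0 counts in HET replicate 1 and in both SN libraries, and stood at 34.2 to 112 CPM in HET replicate 2 and both KO libraries. The 4 Y-linked genes found, which include Kdm5d and Uty, summed to 27.0 CPM in HET replicate 1, so not all were at 0 there. The same sum was 32.4 and 30.7 CPM in the HET and KO SN libraries. It was 289 CPM in HET replicate 2 and 154 and 224 CPM in KO. By the values of Ddx3y and Eif2s3y the 2 HET libraries did not hold the same set of animals. Nor did the KO SN library hold the same set as either KO captured library. RGC markers summed to 12160 and 11266 CPM in HET, 12657 and 9007 CPM in KO, and 1122 and 1238 CPM in the HET and KO SN libraries, so all 4 captured libraries were far above the unbound cells.

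POU4 factors bind DNA through a POU-specific domain and a homeodomain and are made as ganglion cells leave the cell cycle. Brn3b is required early for the survival and axon growth of many RGCs, whereas Brn3a acts in the later choice of dendrite shape and cell type, and its absence is known to remove only part of the RGC population. Brn3c, the product of Pou4f3, is found in a smaller RGC subset. In bulk samples such as these, fewer cells of a type and less RNA per cell cannot be told apart.

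Pou4f1 (ENSMUSG00000048349, chr14:104461676-104467999, minus strand, GRCm38) stood at 484 and 443 CPM in HET and at 16.6 and 10.9 CPM in KO. The groups lay far apart. Both KO libraries were near the 9.24 CPM of the HET SN library but above the KO SN library. The coding transcript Pou4f1-001 had 246 estimated counts in the HET SN library and 54.7 in the KO SN library. The fall was 33.3-fold (log2 fold change -5.06 ± 0.56, SE of the fit, adjusted p = 0.0258, edgeR quasi-likelihood test with Benjamini-Hochberg adjustment over 16673 genes, used for every adjusted p here). The coding transcript Pou4f1-001 had 12270 and 12310 estimated counts in HET and 429 and 334 in KO, and the noncoding transcript Pou4f1-002 had 3704 and 3596 in HET and 119 and 25 in KO, so both annotated forms were low in KO.

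The other family members were measured in the same cells. Pou4f2 stood at 242 and 252 CPM in HET and at 389 and 266 CPM in KO (0.42 ± 0.25, adjusted p = 1). Pou4f3 stood at 70.8 and 72.0 CPM in HET and at 99.3 and 63.0 CPM in KO (0.20 ± 0.60, adjusted p = 1), and its sign turned to -0.19 without KO replicate 1. Both KO libraries were above HET for Pou4f2, and the groups overlapped for Pou4f3. Per transcript length, the 3 genes summed to 606 and 585 TPM (counts scaled by transcript length and library) in HET and to 307 and 206 TPM in KO. Pou4f1 made up 68.0% and 65.0% of that sum in HET and 4.36% and 2.85% in KO, where Pou4f2 made up 71.0% and 73.5%.

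**Figure D1:**
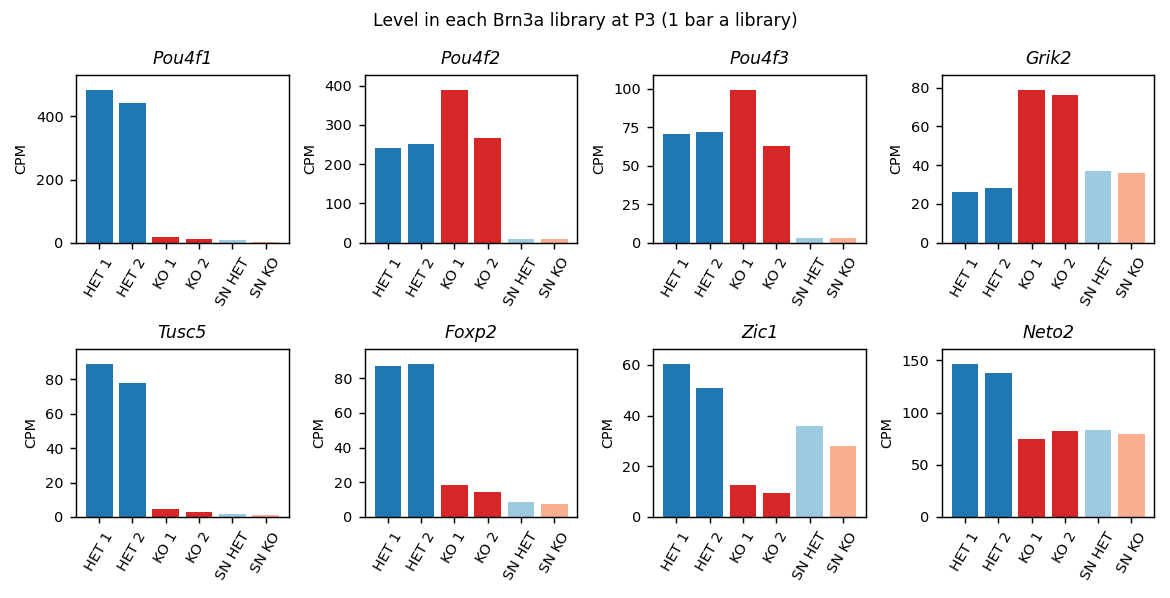
CPM (vertical axis, from 0) of 8 genes in the 2 HET (dark blue) and 2 KO (red) AP-positive libraries and in the HET (light blue) and KO (light orange) SN libraries, 1 bar a library. Pou4f1 is at 484 and 443 CPM in HET and 16.6 and 10.9 CPM in KO, while Grik2 is at 26.3 and 28.0 CPM in HET and 78.8 and 76.3 CPM in KO.

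Across all genes, 3 of 16673 passed the threshold of adjusted p under 0.05 (0.0180%), 2 of them higher in KO (0.0120%) and 1 lower (0.00600%). At an unadjusted p under 0.05 there were 220 higher (1.32%) and 212 lower genes (1.27%). In 2411 genes (14.5%) both KO libraries lay above both HET libraries, and in 2756 (16.5%) both HET libraries lay above both KO libraries. These shares are the background for every count of list members given here. The lists were chosen with earlier results of these data known, so the counts are a description. With DESeq2 in place of edgeR, 56 genes passed (25 higher and 31 lower), and with only these 4 libraries in the edgeR fit none passed, with 627 genes at an unadjusted p under 0.05.

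Grik2 was the protein-coding gene that rose. It encodes GluK2, a pore-forming subunit of kainate receptors, the glutamate-gated channels that also act through slower metabotropic signalling. It stood at 26.3 and 28.0 CPM in HET and at 78.8 and 76.3 CPM in KO, a 2.88-fold rise (1.53 ± 0.16, adjusted p = 0.0258). The 2 KO libraries were nearly equal and well above both HET libraries. The unbound cells held 37 CPM in the HET and 36.1 CPM in the KO retina, so the SN libraries differed by less than the AP-positive ones. At the Brn3b locus the level was 33.9 and 34.7 CPM in HET and 33.5 and 36.8 CPM in KO (0.01 ± 0.16, adjusted p = 0.977). The Brn3a effect exceeded the Brn3b effect by 1.51 ± 0.23, and this difference did not pass (adjusted p = 0.124). The fold change kept its size when any 1 of the 4 libraries was left out (1.46 to 1.57), but the adjusted p then ran from 0.0732 to 0.506, and for Pou4f1 from 0.126 to 0.494.

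The longest coding transcript, Grik2-001, carried most of the rise, with 594 and 480 estimated counts in HET and 1677 and 1664 in KO. Grik2-202 moved less evenly, with 61.9 and 356 counts in HET and 454 and 374 in KO. The Grik2 gene spans chr10:49099460-49788766 on the minus strand. Because it is the protein-coding gene called higher in KO, the bases just upstream of its annotated span are shown 5′ to 3′ (chr10:49788767-49789004, minus strand, from RefSeq's GRCm38.p6 promoter table). Capitals are reserved for the motifs named next.
Grik2 upstream: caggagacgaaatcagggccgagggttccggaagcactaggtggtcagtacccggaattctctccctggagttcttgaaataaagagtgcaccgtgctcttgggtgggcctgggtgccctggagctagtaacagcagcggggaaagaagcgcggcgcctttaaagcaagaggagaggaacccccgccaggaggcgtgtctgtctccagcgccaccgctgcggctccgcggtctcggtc
No capital stands in it: neither ATAATTAA (TTAATTAT on the other strand), an AT-rich core of the kind POU4 factors bind, nor the shorter CATTAA, also searched on both strands, is in this window. The first motif is in 1.09% and the second in 7.91% of 32851 RefSeq promoters over the 250 bases before the start.

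Kainate receptors are built from Grik1 to Grik5 and travel with the auxiliary proteins Neto1 and Neto2, which slow their desensitization. Grik2 made up 9.11% and 11.5% of the summed TPM of the 5 subunit genes in HET and 27.0% and 31.5% in KO, whereas the sum itself was 119 and 106 TPM in HET and 119 and 102 TPM in KO. Grik4, a high-affinity subunit, stood at 12.8 and 12.6 CPM in HET and 9.62 and 5.52 CPM in KO (-0.73 ± 0.28, adjusted p = 1). Grik1 stood at 7.64 and 10.2 CPM in HET and 5.80 and 5.79 CPM in KO (-0.61 ± 0.54). For Grik3 and Grik5 the groups overlapped, at 170 and 133 CPM in HET against 117 and 140 CPM in KO for the former and 130 and 108 against 122 and 74.0 CPM for the latter. Neto2 was on the HET side, at 147 and 138 CPM against 74.6 and 82.0 CPM in KO (-0.85 ± 0.15, adjusted p = 0.246), and Neto1 on the KO side, at 5.52 and 5.46 CPM against 7.71 and 6.67 CPM (0.40 ± 0.31, adjusted p = 1).

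The third called gene, Gm6984, is a processed pseudogene (chr14:73955000-73955551). It had 0 counts after rounding in both HET libraries and 140 and 363 in KO. Against a floor of 3 counts over the HET group this is at least 176-fold higher, counting error only. In the unbound cells the order was opposite, with 681 counts in the HET and 62 in the KO library. Gm6984 was also called higher in Brn3b KO (2.41 ± 0.50, adjusted p = 0.0406). Pseudogenes of this kind share reads with near-identical copies, so the assignment of these counts is uncertain.

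Besides Pou4f1, 11 genes made up the set of 12 with the smallest p among those lower in KO (mean of at least 10 CPM, no overlap between groups). Their folds ran from 1.67 to 33.3 with Pou4f1 included, and none but Pou4f1 passed. In all 12, both HET libraries lay above the HET SN library. The choice of genes high in HET favours this order, and its share over all genes was not counted. Since p and separation chose these genes, their values are a description.

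Among transcription factors, Foxp2, a forkhead factor that marks the F-RGC types, stood at 86.9 and 88.1 CPM in HET and 18.2 and 14.2 CPM in KO (-2.42 ± 0.40, adjusted p = 0.236). Zic1, a zinc finger factor of neural patterning, stood at 60.3 and 50.9 CPM in HET and 12.5 and 9.55 CPM in KO, below the 35.9 and 27.9 CPM of the SN libraries (-2.32 ± 0.46, adjusted p = 0.461). Rora, an orphan nuclear receptor, was at 293 and 294 CPM in HET and 164 and 185 CPM in KO, and Tshz2, a teashirt zinc finger factor, at 59.5 and 59.0 against 26.3 and 25.3 CPM. Replicates of Rora and Tshz2 lay close together in each group and the groups did not overlap.

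Tusc5, a membrane protein known from glucose transporter vesicles of fat cells, gave the lowest KO level relative to HET after Pou4f1: 88.8 and 77.9 CPM in HET against 4.46 and 2.97 CPM in KO (-4.47 ± 0.66, adjusted p = 0.200). It was near the SN level (1.99 CPM in HET) in both KO libraries. At the Brn3b locus Tusc5 was at 3.61 and 4.07 CPM already in HET. With no filter on low counts, Tusc5 (adjusted p = 0.00917) and Foxp2 (adjusted p = 0.0385) passed as well.

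Nptx2, a secreted pentraxin that clusters AMPA receptors, stood at 87.6 and 75.4 CPM in HET and 40.6 and 34.7 CPM in KO (-1.10 ± 0.16, adjusted p = 0.200). Elfn1, a postsynaptic adhesion protein that binds metabotropic glutamate receptors, was at 36.8 and 33.9 CPM in HET and 9.84 and 15.6 CPM in KO (-1.47 ± 0.30). Lypd1, a surface-anchored modulator of nicotinic receptors, was at 17.6 and 15.9 against 3.19 and 4.73 CPM, and Camkv, a kinase-like vesicle protein, at 43.5 and 42.4 against 25.3 and 24.7 CPM. The same 250 bases were searched in the 19 of these 24 higher and lower genes that the promoter table holds. ATAATTAA was in none of them and CATTAA in Elfn1 alone, in a stretch (chr5:139907646-139907691, plus strand, motif in capitals) that is shown because it is the one match.
Elfn1 upstream: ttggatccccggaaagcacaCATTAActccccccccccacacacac

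The 12 genes higher in KO by the same rule had folds of 1.39 to 4.81, and of these only Grik2 passed (adjusted p up to 0.886). In 5 of the 12, both HET libraries were above the HET SN library, and in 3 the KO SN library was above the HET SN library. The shares of all genes with these orders were not counted, so both counts are a description.

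Ano3, an anoctamin membrane protein, stood at 22.4 and 21.4 CPM in HET and 79.2 and 65.3 CPM in KO, against 0.749 and 0.552 CPM in the SN libraries (1.73 ± 0.37, adjusted p = 0.580). Kcnf1, a silent potassium channel subunit, was at 5.97 and 5.73 against 21.3 and 15.9 CPM, and Kirrel3, an immunoglobulin-family synaptic adhesion protein, at 27.6 and 26.6 against 87.1 and 56.6 CPM. Pgm5, a phosphoglucomutase-like protein of cell junctions, was at 4.64 and 5.37 CPM in HET and 26.9 and 20.8 CPM in KO, with 0.374 and 0.319 CPM in the SN libraries. For Ano3 and Pgm5 every captured library was above both SN libraries, and the KO libraries were the highest.

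Cxcr4, the receptor of the chemokine Cxcl12, stood at 7.64 and 10.7 CPM in HET and 33.2 and 30.5 CPM in KO, with 40.6 CPM in the HET SN library (1.80 ± 0.37, adjusted p = 0.535). Gad2, an enzyme of GABA synthesis that amacrine cells express, was at 19.6 and 23.5 against 35.3 and 47.2 CPM, with 81.1 and 69.7 CPM in the SN libraries (0.94 ± 0.15, adjusted p = 0.236). The nuclear kinase Hipk2 was at 87.1 and 95.3 against 144 and 135 CPM, the polysialyltransferase St8sia4 at 23.1 and 26.3 against 39.9 and 40.3 CPM, and Fibcd1, a receptor for acetylated groups, at 4.15 and 5.04 against 12.3 and 10.8 CPM. Cxcr4 and Gad2 were higher in unbound cells than in HET captured cells, which Ano3 and Pgm5 were not. The ribosomal protein genes Rpl10 (40.8 and 44.3 against 64.2 and 90.8 CPM) and Rpl36al (48.6 and 50.6 against 65.9 and 71.2 CPM) have processed copies elsewhere in the genome, so their counts are uncertain.

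**Figure D2:**
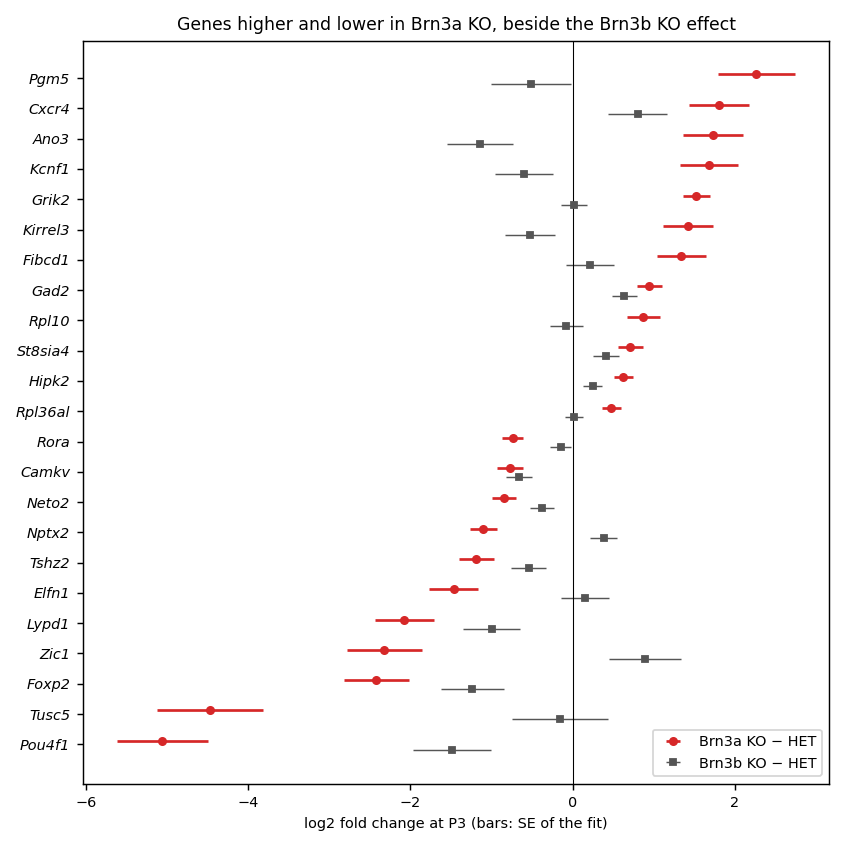
Log2 fold change KO minus HET at P3 (horizontal axis, bars are the SE of the fit) of the genes reported here among the 24 with the smallest p in the Brn3a comparison (red circles), with the Brn3b effect on the same genes (grey squares). Grik2 is at 1.53 for Brn3a and 0.01 for Brn3b, and Tusc5 at -4.47 and -0.15.

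The Brn3b libraries lent their spread and the filter on low counts to the p-values that chose these genes, while the fold changes compared Brn3a libraries only. The Brn3b effect had the same sign in 7 of the 12 higher and 8 of the 12 lower genes. The share of all genes with the same sign in both knockouts was not counted. The Brn3b effect was called in the same direction for 1 of the 24, Gad2 (0.64, adjusted p = 0.0493), and in the opposite direction for none. Ano3 (-1.14), Kcnf1 (-0.60), Kirrel3 (-0.52) and Pgm5 (-0.51) were on the other side of 0 in Brn3b KO, as were Zic1 (0.89) and Nptx2 (0.38), but none of these passed. The difference between the effects was called for none of the 24 genes. Over all genes it was called for 2 of 16673 (0.0120%), Pou4f2 and Dlx1, with 1471 genes at an unadjusted p under 0.05.

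Transcription factors of RGCs set the identity and projection of each type. Of the 56 members tested, none passed, 10 had both KO libraries above HET and 15 both HET libraries above KO (17.9% and 26.8%, against 14.5% and 16.5% of all genes), and the median log2 fold change was -0.08, against 0.01 over all genes. The list's median was -0.04 without HET replicate 1 and also without KO replicate 1. The Iroquois homeobox genes Irx2 (48.3 and 40.7 against 17.5 and 11.7 CPM, -1.59 ± 0.39) and Irx4 (47.4 and 40.4 against 13.0 and 9.73 CPM, -1.93 ± 0.49) followed Foxp2 and Zic1 on the HET side. Both fell in Brn3b KO, with log2 fold changes of -2.67 for Irx2 (adjusted p = 0.0197) and -2.24 for Irx4 (adjusted p = 0.0482), and so did Tbr1 (-2.46, adjusted p = 0.0197) and Ebf1 (-1.87, adjusted p = 0.0373). Foxp1, a forkhead partner of Foxp2, was at 72.5 and 61.1 against 44.0 and 37.8 CPM. Tbr1, a T-box factor of OFF-type RGCs, was at 37.4 and 38.9 against 21.7 and 18.6 CPM, and the zinc finger factor Bcl11a at 33.9 and 30 against 18.9 and 19.9 CPM. Satb1, a chromatin organizer of direction-selective RGCs, was at 146 and 142 against 111 and 112 CPM, and Ebf1, a helix-loop-helix factor, at 252 and 243 against 158 and 122 CPM. In each of these the groups did not overlap and the adjusted p was at or above 0.236.

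Of the 10 factors on the KO side, Zic2, Tbx3 and Isl1 are described here. Zic2, which directs uncrossed axons, was at 7.03 and 6.07 CPM in HET and 7.71 and 12.8 CPM in KO. Tbx3, a T-box factor of the developing eye, was at 6.03 and 5.90 against 7.29 and 12.8 CPM, and the SN libraries held 62.8 and 47.4 CPM of it. Zic2 was at 40.9 and 49.5 CPM there, so both genes were higher in unbound cells. Isl1, a LIM-homeodomain partner of the POU4 factors, was at 141 and 133 CPM in HET and 190 and 144 CPM in KO (0.30 ± 0.33, adjusted p = 1).

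Markers of individual RGC types were tested for 35 genes. None passed, 5 lay on the KO side and 13 on the HET side (14.3% and 37.1%), and the median was -0.19, with -0.28 to -0.13 when 1 of the 4 libraries was left out. Besides Tusc5, Foxp2, Zic1 and Tbr1, the calcium-binding proteins Calb1 (12.6 and 10.7 against 4.13 and 6.61 CPM) and Calb2 (1094 and 956 against 742 and 505 CPM) were on the HET side. Tusc5, Foxp2 and Zic1 also belong to the set of 12 lower genes above, so the 2 descriptions share members. The KO side held the protocadherin Pcdh9 (69.6 and 68.5 against 140 and 113 CPM, 0.89 ± 0.26), the cadherin Cdh6 of some direction-selective RGCs (16.7 and 16.4 against 30.4 and 23.8 CPM) and the junction protein Jam3 (14.8 and 15.7 against 20.0 and 27.8 CPM). Jam3 was at 123 and 106 CPM in the SN libraries, whereas Pcdh9 and Cdh6 were lower there than in any captured library. Summed over the list, the level was 3255 and 3140 CPM in HET and 2755 and 2400 CPM in KO.

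Ionotropic glutamate receptors and their auxiliary proteins receive the bipolar cell input of RGCs. Of 20 genes tested, 12 had both HET libraries above both KO libraries (60%, against 16.5% of all genes) and 3 the reverse (15.0%, against 14.5%), and Grik2 was the sole called member. The median was -0.26, and it ran from -0.26 to -0.59 when 1 library was left out, lowest without KO replicate 1. NMDA receptor subunits made up part of the HET side: Grin2d was at 31.3 and 31.5 against 23.5 and 15.0 CPM, Grin3a at 28.6 and 29.1 against 20.3 and 14.4 CPM, and Grin2a at 3.70 and 3.76 against 0.0304 and 0.909 CPM. Grid1, a delta-type receptor of synapse formation, was at 51.7 and 46.1 against 39.7 and 27.0 CPM, and the AMPA receptor subunit Gria1 at 98.7 and 80.0 against 69.3 and 62.1 CPM. None of these 5 passed (adjusted p = 1 for each). KO replicate 2, the lower of the KO libraries for Grin2d, Grin3a, Grid1 and Gria1, also had the lowest RGC marker sum, and the part of that sum in these values was not tested.

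**Figure D3:**
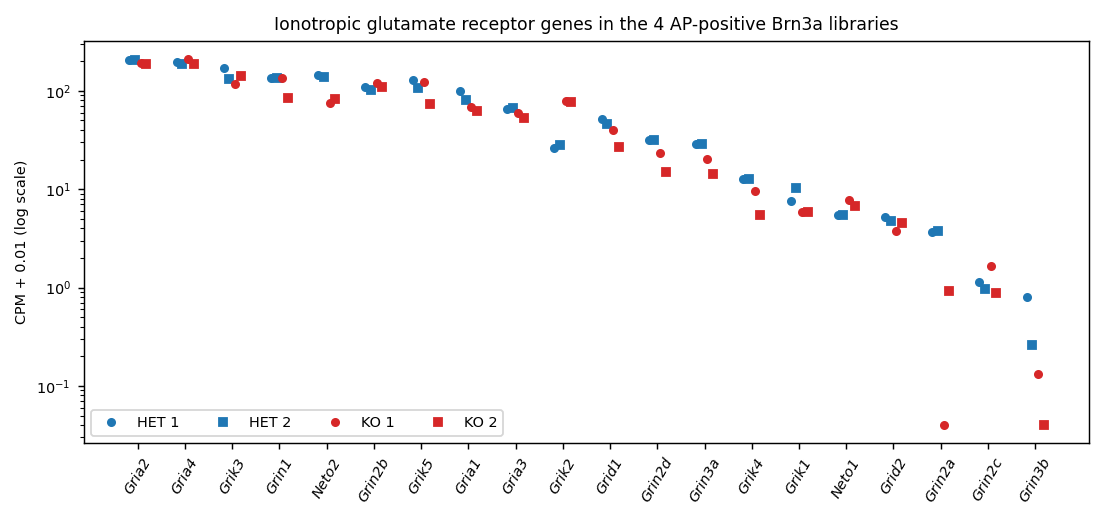
CPM + 0.01 on a log axis of the 20 ionotropic glutamate receptor and auxiliary genes tested, ordered by mean level, in HET (blue) and KO (red) libraries (circles replicate 1, squares replicate 2). Grik2 has both KO points above HET by 2.88-fold, while 12 genes have both HET points above KO.

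Other families of neuronal surface and signalling genes were counted the same way, and no member of any of them passed. Copines are calcium-dependent membrane-binding proteins, several of them known as Brn3-dependent genes in RGCs. Because the list was chosen with earlier results of these data known, its shares add no independent evidence. Of 9 tested, 6 were on the HET side (66.7%) and none on the KO side, with a median of -0.51 (-0.75 without KO replicate 1, -0.35 without KO replicate 2 and -0.31 without HET replicate 2). Cpne4 was at 369 and 305 CPM in HET and 140 and 114 CPM in KO (-1.39 ± 0.48, adjusted p = 1), with 11.3 and 9.58 CPM in the SN libraries. Cpne9 was at 48.0 and 40.4 against 33.9 and 21.4 CPM, and Cpne6 at 7.94 and 6.99 against 4.55 and 4.49 CPM.

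Among 45 voltage-gated channel genes, 14 were on the HET side (31.1%) and 1 on the KO side (2.22%), with a median of -0.13 (-0.27 without KO replicate 1, -0.07 without KO replicate 2). Kcnd2, the potassium channel subunit Kv4.2, was at 111 and 104 against 62.8 and 45.9 CPM, and its accessory protein Kcnip4 at 50.5 and 55.0 against 23.8 and 24.7 CPM. Receptors for GABA, glycine and acetylcholine had 12 of 26 genes on the HET side (46.2%) and 4 on the KO side (15.4%), with a median of -0.17 that became -0.28 without KO replicate 1 and -0.03 without KO replicate 2. The GABA receptor subunit Gabra5 was at 17.6 and 17.7 against 12 and 9.28 CPM. The glycine receptor subunit Glra3 was on the KO side, at 1.61 and 2.37 against 5.98 and 5.06 CPM.

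Neuropeptides and calcium-binding proteins had 12 of 26 genes on the HET side (46.2%) and 3 on the KO side (11.5%), with a median of -0.28 (-0.49 without KO replicate 1). Pnoc, the precursor of nociceptin, was the KO-side gene with the smallest p, at 5.58 and 3.70 against 13.6 and 13.3 CPM (1.55 ± 0.45, adjusted p = 1). Synaptic vesicle and release genes had 13 of 36 on the HET side (36.1%) and 3 on the KO side (8.33%). Their median was -0.17 (-0.29 without KO replicate 1, -0.05 without KO replicate 2). Cplx2, a complexin of vesicle fusion, was at 560 and 524 against 257 and 426 CPM, with 525 and 620 CPM in the SN libraries. Unlike Cpne4 and Kcnd2, Cplx2 was thus at a like level in unbound cells and HET captured cells.

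Adhesion and recognition genes had 21 of 65 on the HET side (32.3%) and 10 on the KO side (15.4%), with a median of -0.12 that became -0.31 without KO replicate 1 and 0.01 without KO replicate 2. Cdh4, the cadherin of retinal axons known as R-cadherin, was at 218 and 187 against 100.1 and 82.9 CPM (-1.13 ± 0.31, adjusted p = 1). The protocadherin Pcdh20 was at 12.4 and 16.8 against 7.20 and 7.09 CPM, and the axon adhesion protein Alcam at 133 and 119 against 94.9 and 85.1 CPM. Axon guidance genes had 11 of 57 on the HET side (19.3%), 7 on the KO side (12.3%), and a median of -0.04 (-0.15 without KO replicate 1, 0.06 without KO replicate 2 and 0.05 without HET replicate 1).

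Neurotrophic receptors carry survival signals from the targets of RGC axons. Of 17 tested, 4 were on the HET side (23.5%) and 2 on the KO side (11.8%), with a median of -0.03 (-0.19 without KO replicate 1, and -0.18 or 0.02 when HET replicate 2 or HET replicate 1 was left out). The neurotrophin-3 receptor Ntrk3 was at 13.2 and 13.6 against 8.84 and 6.09 CPM, on the HET side. Ntrk2, the receptor of brain-derived neurotrophic factor, was on the KO side, at 163 and 147 CPM in HET and 277 and 181 CPM in KO (0.58 ± 0.28, adjusted p = 1). The GDNF-family receptors were divided: Gfra1 was at 7.85 and 11.8 against 12.8 and 20.0 CPM, and Ret at 200 and 164 against 158 and 123 CPM.

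**Figure D4:**
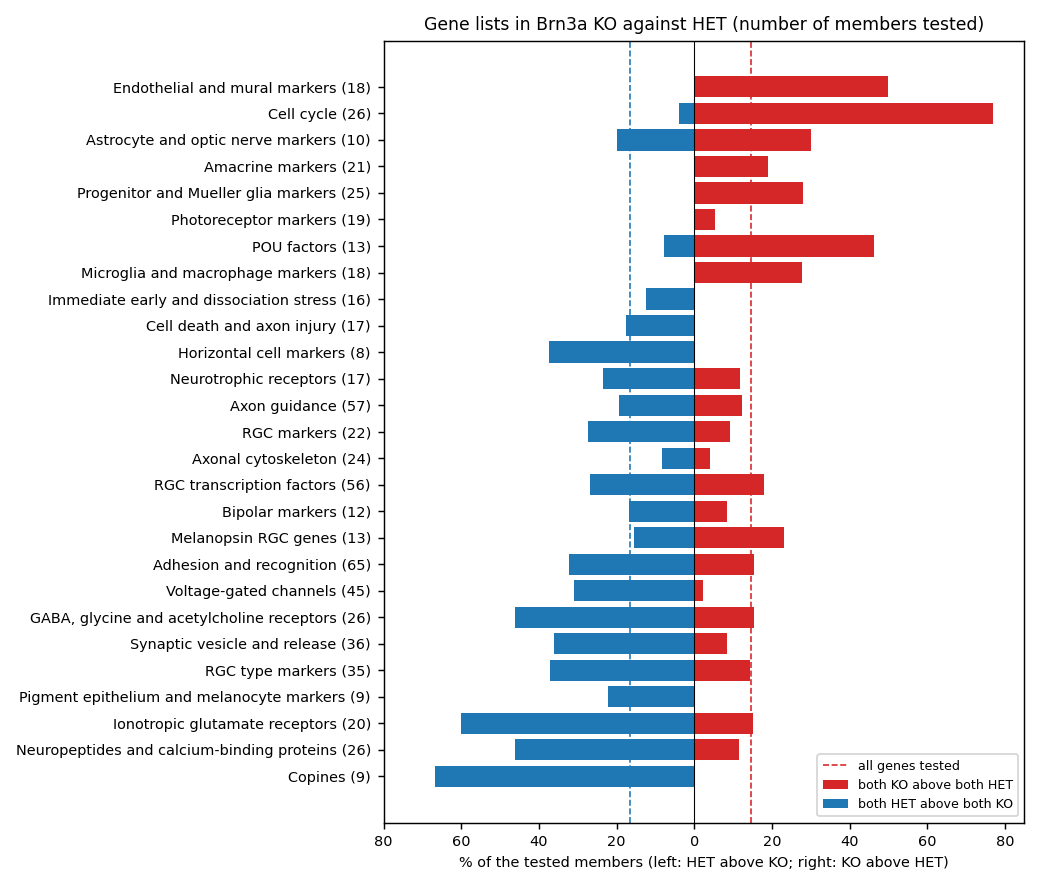
Share of the tested members of each list (at least 8 tested, number in brackets) with both KO libraries above both HET libraries (red, right) or both HET above both KO (blue, left); dashed lines mark the 14.5% and 16.5% of all genes. Copines (66.7%) and ionotropic glutamate receptors (60%) reach farthest to the HET side and cell cycle genes (76.9%) farthest to the KO side. The lists were chosen with earlier results of these data known.

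Genes near Pou4f1 were counted as well. Of 21 genes tested within 5 Mb, none passed, and the median was 0.04. On the KO side were 4 and on the HET side 4, against 14.5% and 16.5% of all genes. The 2 with an unadjusted p under 0.05 were Tbc1d4, a regulator of glucose transporter traffic (15.1 and 17.3 against 8.38 and 8.70 CPM), and Kctd12, an auxiliary protein of GABA-B receptors (1085 and 1151 against 902 and 770 CPM).

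Markers of other cells were read in the same libraries. Cell cycle genes, which postmitotic RGCs lack, had 20 of 26 members on the KO side (76.9%) and 1 on the HET side, with a median of 0.44 and a range of 0.45 to 0.47 when 1 of the 4 libraries was left out. Their sum was 440 and 446 CPM in HET and 581 and 613 CPM in KO, against 3809 and 2217 CPM in the SN libraries, and none of the genes passed. Bub1b, a mitotic checkpoint kinase, was at 8.64 and 8.30 against 15.2 and 18.4 CPM, and Ccnb1, a mitotic cyclin, at 8.76 and 10.3 against 16.5 and 18.8 CPM.

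Endothelial and mural markers had 9 of 18 on the KO side (50.0%) and none on the HET side, with a median of 0.67 (0.31 without KO replicate 1 and 1.01 without KO replicate 2, chosen after seeing the data). The summed level was 284 and 204 CPM in HET and 387 and 259 CPM in KO, so the groups overlapped in the sum. Tek, the angiopoietin receptor, was at 2.67 and 3.65 against 12.8 and 10.4 CPM, and the tight junction gene Cldn5 at 3.55 and 1.75 against 8.35 and 4.85 CPM. Amacrine markers summed to 2031 and 1884 CPM in HET and 2075 and 1929 CPM in KO, with 4 of 21 genes on the KO side (19.0%) and a median of 0.27 that became 0.65 without KO replicate 1 and turned to -0.10 without KO replicate 2. Besides Gad2, the KO side held Th, the enzyme of dopamine synthesis (0.546 and 0.529 against 0.789 and 1.12 CPM), and Slc5a7, the choline transporter of starburst cells (7.03 and 6.65 against 14.5 and 12 CPM).

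The KO libraries differed from each other in other cells. Photoreceptor markers summed to 1561 and 1636 CPM in HET but to 685 and 2935 CPM in KO replicates 1 and 2, against 4045 and 5059 CPM in the SN libraries. Progenitor and Mueller glia markers summed to 1470 and 1451 CPM in HET and 1484 and 1801 CPM in KO, with a median of 0.20 that became 0.35 without KO replicate 1 and turned to -0.06 without KO replicate 2. Microglia and macrophage markers summed to 4962 to 6158 CPM in the 4 captured libraries and to 20.4 and 19.7 CPM in the SN libraries, so the captured RNA held them in both genotypes. Of 22 RGC markers tested, none passed, and the groups overlapped in 14. The HET side held 6 (27.3%, against 16.5% of all genes) and the KO side 2 (9.09%, against 14.5%). Their median was -0.05, with -0.35 without KO replicate 1 and 0.17 without KO replicate 2. Rbpms2, an RNA-binding protein, had the smallest p among them. It was on the HET side at 286 and 256 against 132 and 106 CPM (-1.17 ± 0.35, adjusted p = 1). The part of these other cells in the values of single genes was not tested.

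**Figure D5:**
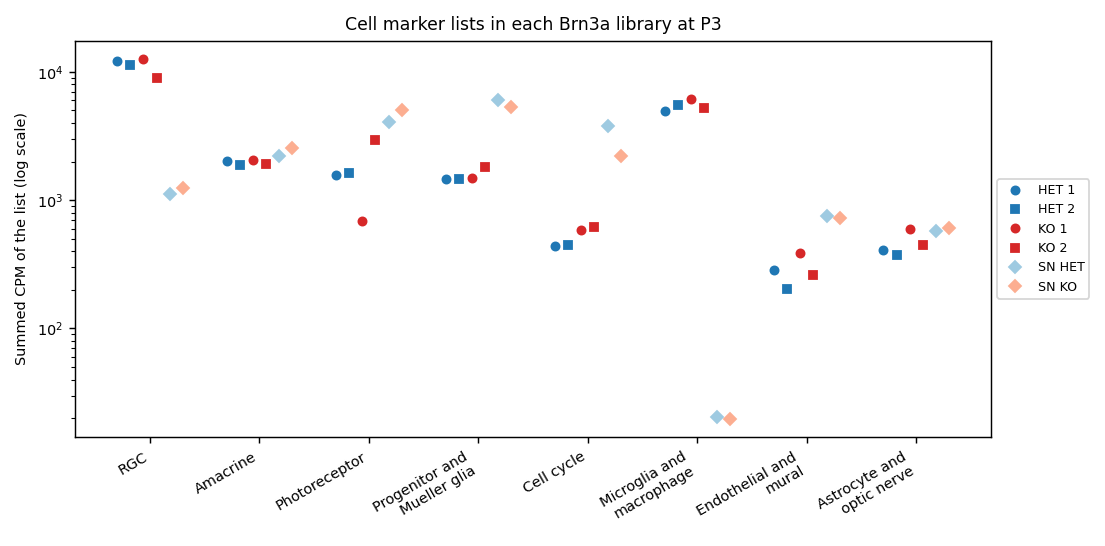
Summed CPM (log axis) of 8 marker lists in the HET (blue) and KO (red) AP-positive libraries and in the SN libraries (light diamonds), all at P3. Cell cycle genes are at 440 and 446 CPM in HET and 581 and 613 CPM in KO, while photoreceptor markers are at 685 CPM in KO 1 and 2935 CPM in KO 2.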

How the data were processed

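The authors deposited estimated counts per transcript (88198 Ensembl transcripts, 30735 genes, GRCm38 coordinates) with transcript length and GC percent; the deposited GC percent was not used. The submitters' processing notes name GRCm38.p3, eXpress 1.3.1, Bowtie2 2.2.1 and Trimmomatic 0.32; their order and the use of strand in counting are not given in the sources used here. Libraries were strand-marked mRNA sequenced from 1 end, per the labels' protocols.

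Counts were summed per gene and rounded. edgeR 4.0.16 (R 4.3.3; TMM, filterByExpr with minimum count 10, quasi-likelihood F-test, Benjamini-Hochberg, call at adjusted p under 0.05) was fitted to all 12 AP-positive libraries in 6 groups (6 residual degrees of freedom, biological coefficient of variation 26.3%). SE was taken as |log2 fold change| over √F. CPM was scaled over the 18 retinal libraries, and TPM was computed from counts and lengths. DESeq2 1.42.0 was an alternative. The fit was tested on simulated data.

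Named were the POU4 genes, called genes, the 12 higher and 12 lower genes with the smallest p (mean of at least 10 CPM, no overlap, predicted genes passed over), members of 4 lists, 4 of each other list and 4 neighbours of Pou4f1; some that the rule names are not reported here. The comparison and the 30 gene lists were chosen with earlier results of these data known. Counts of overlapping or antisense genes and of near-identical copies are uncertain.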

Additional observations from a re-analysis of the deposited data

Results flagged for a closer look

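For 2 genes the effect of losing Brn3a differed from that of losing Brn3b at P3 by a test of the difference itself (edgeR interaction contrast, adjusted over 16673 genes). Pou4f2 differed by 4.01 ± 0.37 on the log2 scale (adjusted p = 0.0136): it stood at 242 and 252 CPM in Brn3a HET and 389 and 266 CPM in Brn3a KO, and at 188 and 286 CPM in Brn3b HET and 21.3 and 18.8 CPM in Brn3b KO, where it is the targeted gene.

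Dlx1, a homeobox factor of interneurons and of developing RGCs, differed by -2.38 ± 0.26 (adjusted p = 0.0354). It stood at 1.00 and 0.891 CPM in Brn3a HET and 0.304 and 0.394 CPM in Brn3a KO, and at 3.23 and 3.98 CPM in Brn3b HET and 7.05 and 7.27 CPM in Brn3b KO, so its level in the Brn3a libraries was low throughout and below the 4.52 and 2.93 CPM of the Brn3a SN libraries. Its difference did not pass in any of the 8 fits without 1 of the Brn3a or Brn3b P3 libraries (-2.57 to -2.23, adjusted p 0.0513 to 0.255). That of Pou4f2 did not pass without either Brn3a HET library or either Brn3b KO library (adjusted p 0.0830 to 0.0898).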

How the results depend on the processing

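For Brn3a KO against HET the count of 3 called genes was 3, with the same genes, with DESeq2 size factors and with all 18 retinal libraries. It was also 3 with the 8 AP-positive P3 libraries, where 2 of the genes were shared, Gm6984 did not pass (adjusted p = 0.0885) and another gene did. It became 5 with no filter on low counts, 56 with DESeq2, 0 with only the compared groups (627 genes at an unadjusted p under 0.05) and 0 with the replicate block (455 genes), and ran from 0 to 6 when 1 Brn3a library was left out. For the difference between the Brn3a and Brn3b effects the count of 2 became 53 with no filter, 334 with DESeq2, 0 with the 8 P3 libraries (1736 genes at an unadjusted p under 0.05) and 1 with the replicate block, and ran from 0 to 2 when 1 library was left out. Replicate numbers share only a number: deviations of same-numbered Brn3a libraries correlated at 0.095.

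Of the 78 genes named, 76 kept their sign in all 11 alternatives. Many were named for a small p or for groups that did not overlap, which favours a kept sign. The 2 that reversed, Pou4f3 and Grik5, had overlapping groups. When 1 Brn3a library was left out, Pou4f3 ran from -0.19 (without KO replicate 1) to 0.50 (without KO replicate 2), and Grik5 from -0.70 (without KO replicate 1) to 0.0627 (without KO replicate 2). All 24 genes of the higher and lower sets kept their sign, and DESeq2 called all 24. Small p and separation in these same libraries chose the 24, which favours both outcomes, so neither is independent support. List medians without single libraries were chosen after seeing the data. The cause of the differences between tools was not tested.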

Other observations

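Lists of stress, injury and cytoskeleton genes were counted in the same way. Over all genes, 14.5% lay on the KO side and 16.5% on the HET side. Immediate early and dissociation stress genes had none of 16 on the KO side and 2 on the HET side (12.5%). Their median log2 fold change was 0.01, with -0.22 without KO replicate 1 and 0.18 without KO replicate 2. Cell death and axon injury genes had none of 17 on the KO side and 3 on the HET side (17.6%). Their median was 0.00 (-0.08 without KO replicate 1 and 0.04 without KO replicate 2). Axonal cytoskeleton genes had 1 of 24 on the KO side (4.17%) and 2 on the HET side (8.33%), and the groups overlapped in 21. They summed to 25698 and 23242 CPM in HET and 27511 and 19378 CPM in KO. Their median was -0.06, which became -0.41 without KO replicate 1 and turned to 0.15 without KO replicate 2. Genes of melanopsin RGCs had 3 of 13 on the KO side (23.1%) and 2 on the HET side (15.4%). They summed to 577 and 620 CPM in HET and 631 and 625 CPM in KO. In none of these lists did a gene pass (edgeR), and at an unadjusted p under 0.05 there was 1 gene, among the melanopsin RGC genes on the HET side.

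Sema3d, a secreted guidance cue, was the axon guidance gene with the smallest p, at 1.33 and 1.17 CPM in HET and 3.64 and 5.34 CPM in KO (1.85 ± 0.60, adjusted p = 1). Erythroid markers summed to 177 and 283 CPM in HET and 104 and 173 CPM in KO.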
